A study of Mus musculus with 3 samples.

Results

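The genes described here supply the cell with NADPH or turn sugar phosphates over in the pentose phosphate pathway: G6pdx, Pgd, Me1, Tkt and Taldo1. They were examined in a ChIP-seq list of Nrf2 binding in mouse embryonic fibroblasts. A region of the list was assigned to a gene when its highest position lay in a fixed mm9 window that covers the gene with about 50 kb on each side. The genes were selected on earlier results for this same list, by the positions of its regions, so which of them have a region is a description and not a test. By this rule 5 of the 1256 listed regions were members. They fell in the windows of 4 of the 5 genes: 2 for Tkt and 1 each for G6pdx, Pgd and Taldo1. No region was listed in the window of Me1.

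All 3 libraries of the series came from Keap1-/- cells of the CD-1 strain, so the control carries the deletion as well and no Keap1 wild-type library is part of the set. Keap1 is the adaptor that presents Nrf2 to a ubiquitin ligase, and without it Nrf2 accumulates. The cells are labelled as embryonic fibroblasts, although the stage given in the labels is 8 to 10 weeks. They were fixed with about 1% formaldehyde for 10 min. The 3 groups hold 1 library each. The first was precipitated with 2 µg of a monoclonal rabbit antibody that recognises the C-terminal domain and the second with 2 µg of a polyclonal rabbit antibody that recognises domains at the N-terminus. The third is a control, which the sample label ties to an anti-rabbit IgG antibody and the design text to input DNA. The deposited list gives 1 height per region for the whole series, in a unit that is not stated, and no value for any single library. There is therefore no replicate, no comparison with the control and no comparison between the antibodies, and the depth of the libraries is unknown. A fibroblast identity cannot be checked against expressed markers in a list of this kind.

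Nrf2 is a transcription factor that pairs with small Maf proteins and binds antioxidant response elements in genes of redox defence. Many of its target enzymes, among them glutathione reductase, thioredoxin reductase and Nqo1, use NADPH or NADH as the source of electrons. NADPH is made in the oxidative branch of the pentose phosphate pathway by glucose-6-phosphate dehydrogenase (G6pdx) and 6-phosphogluconate dehydrogenase (Pgd), and outside the pathway by malic enzyme (Me1). Transketolase (Tkt) and transaldolase (Taldo1) belong to the non-oxidative branch, which exchanges carbon units between sugar phosphates and links the pathway to glycolysis.

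The promoters of these genes are shown first because the antioxidant response element, the sequence that Nrf2 and small Maf proteins recognise, can be looked for in them. No mm9 genome was used here, so the listed regions themselves are not shown as sequence. The promoters are RefSeq's for the build GRCm38.p6, and their positions cannot be set beside the mm9 positions of the list. All 5 genes had an entry, and Pgd and Me1 had 2 start sites each, which made 7 promoters of 250 bases before and 50 bases after the start. The stretches below run from 150 bases before the start to 20 bases into the transcript, 5′ to 3′ on the strand of the gene. The stretch at the second start site of Me1, which held no match, is not shown. Capitals mark each match to the core of the element, TGACNNNGC, on either strand. The stretches are chrX:74428861-74429030 on the minus strand for G6pdx, chr4:149166686-149166855 on the minus strand for the first start site of Pgd, chr4:149166063-149166232 on the minus strand for its second, chr9:86695895-86696064 on the minus strand for the first start site of Me1, chr14:30548981-30549150 on the plus strand for Tkt and chr7:141392010-141392179 on the plus strand for Taldo1.
G6pdx: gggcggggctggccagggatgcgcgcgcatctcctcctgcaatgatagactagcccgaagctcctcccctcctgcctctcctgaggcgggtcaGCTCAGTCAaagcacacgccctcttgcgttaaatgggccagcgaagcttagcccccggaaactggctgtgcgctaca
Pgd, first start site: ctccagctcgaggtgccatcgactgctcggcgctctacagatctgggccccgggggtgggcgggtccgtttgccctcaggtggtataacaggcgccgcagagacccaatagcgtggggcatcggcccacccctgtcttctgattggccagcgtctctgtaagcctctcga
Pgd, second start site: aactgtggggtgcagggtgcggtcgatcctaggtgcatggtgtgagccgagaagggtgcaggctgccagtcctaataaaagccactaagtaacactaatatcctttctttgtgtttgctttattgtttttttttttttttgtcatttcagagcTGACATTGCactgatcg
Me1, first start site: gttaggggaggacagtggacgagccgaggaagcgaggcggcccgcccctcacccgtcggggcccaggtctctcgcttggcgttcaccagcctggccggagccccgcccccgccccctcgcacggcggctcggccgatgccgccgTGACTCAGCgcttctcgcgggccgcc
Tkt: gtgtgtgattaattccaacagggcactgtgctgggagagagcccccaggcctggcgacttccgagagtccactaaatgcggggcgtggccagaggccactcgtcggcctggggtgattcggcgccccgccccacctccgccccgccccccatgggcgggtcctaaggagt
Taldo1: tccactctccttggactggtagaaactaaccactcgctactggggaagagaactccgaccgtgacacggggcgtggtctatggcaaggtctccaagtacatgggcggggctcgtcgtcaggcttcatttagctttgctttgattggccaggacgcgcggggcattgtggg

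The longer form of the element, the core followed by an A, was found in 1 of the 7 promoters, the one at the second start site of Pgd. The match, TGACATTGCA, lay on the strand of the transcript at positions 4 to 13, counted from 1 at the start site, and so inside the transcript. No promoter of the 5 genes held this form in the bases before its start. Whether the second start site of Pgd is used in these cells was not tested. Of the 32851 mouse promoters in the same table, 999 held this form on either strand (3.04%). The shorter core, TGACNNNGC, was found in 3 of the 7 promoters: that same site of Pgd, the promoter of G6pdx and the first promoter of Me1. Of all promoters 12.4% held it.

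In G6pdx the core match was TGACTGAGC on the opposite strand, at positions -57 to -49 relative to the start. In Me1 it was TGACTCAGC on the strand of the transcript, running from position -6 to position 3 and so across the start site itself. The first 7 bases of this match, TGACTCA, are also the binding sequence of AP-1, the dimer of Fos and Jun proteins, and 5.2% of all promoters held those bases. The first promoter of Pgd, the second of Me1 and the promoters of Tkt and Taldo1 held none of the 3 motifs. Of the 4 genes with a region, G6pdx and Pgd thus held a core match, that of Pgd inside the transcript, and Tkt and Taldo1 did not. Me1, with no region, held one across its first start site. A match of letters is not a bound site. The gene windows are 120 to 230 kb long, so the listed regions need not lie in these promoters of 300 bases.

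**Figure D1:**
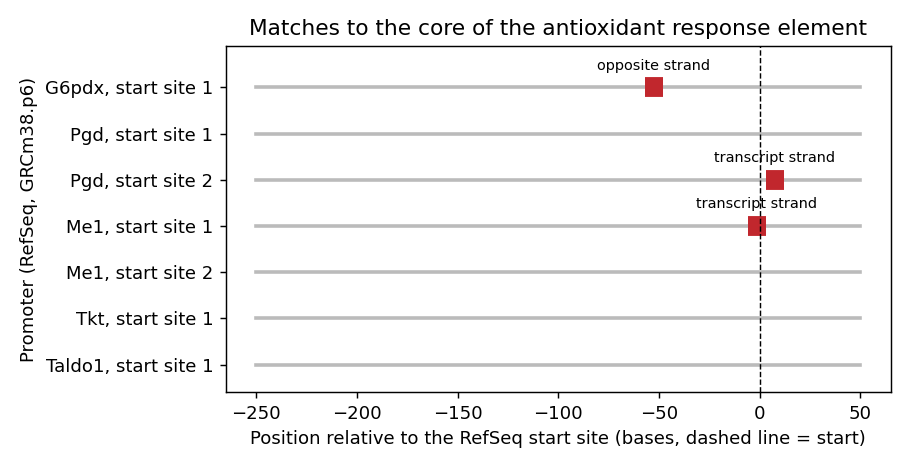
Position of each match to the core of the antioxidant response element (red blocks, drawn to scale) in the 7 RefSeq promoters of the 5 genes, in bases from the start site (dashed line). G6pdx has a match from -57 to -49 on the opposite strand, Me1 has one across its first start site, Pgd has one from 4 to 12 after its second start site, and Tkt and Taldo1 have none.

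Over the 300 bases of the first start site, G and C made up 74.7% in Me1, 61.0% in Tkt, 60.7% in Pgd, 60.0% in G6pdx and 56.7% in Taldo1, against a median of 52.7% over all promoters in the table. Me1 stood apart from the other 4 genes there, but at the second start sites the share was 48.3% in Me1 and 51.3% in Pgd, both below that median. Among 22 other genes of NADPH supply and the pentose phosphate pathway, 18 had a promoter entry. None of these 18 genes held the longer form in any promoter, beside 3.04% of all promoters. The core was found in 1 of the 18 genes, beside 12.4% of all promoters. This was Tktl1, which encodes a transketolase-like protein and held it at positions -69 to -61 and -55 to -47. The counts are of genes and the shares are of promoters. A gene can have several promoters, so count and share are not like for like. Me2, Nnt, Aldh1l2 and Nadk2 had no entry. Listed regions were not linked to the 22 genes, which needs an mm9 annotation.

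The windows of the oxidative branch held 1 region each. The region of G6pdx, whose product makes the first NADPH of the pathway, ran on chromosome X from 71670561 to 71670881 in mm9. Its height was 15.353, rank 221 of 1256, so that 17.6% of the list was at least as tall. This height was 1.52 times the list median of 10.1 and the highest of the 6 regions on chromosome X, where the next was 12.813 and the median 5.19. It stood far from any other listed region of X, with 55.5 Mb to the next one below and 37.5 Mb to the next one above. Among 1281 consecutive windows of 130 kb on X, 5 held a region (0.390%).

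The highest position of the G6pdx region, 71670719, lay near the middle of the window, which runs from 71.60 to 71.73 Mb. With 50 kb taken off each side, the window is reduced to about the gene, from 71.65 to 71.68 Mb, and the region lay within it. It was 9.28 kb inside the upper edge, which is the side of the start because RefSeq places G6pdx on the minus strand. The windows are rounded to 10 kb, so this is a distance to the edge of the reduced window and not to the start site. In GRCm38, Ikbkg, which encodes the regulatory subunit of the IκB kinase complex, overlaps G6pdx, and Ubl4a, Gm44504, Slc10a3 and Fam3a lie within 50 kb on its far side. These positions were not combined with the mm9 list, so whether the region lies in the stretch shared with Ikbkg is not known. Which of these genes the region belongs to was not tested.

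The region of Pgd, whose product makes the second NADPH of the oxidative branch, was 2.2 times as tall. It spanned positions 148544787 to 148545127 of chromosome 4 and reached 33.82, rank 26, and 2.07% of the list was at least as tall. It ranked 3 of 44 on chromosome 4, where heights reached 47.376 and the median was 10.7. The next listed regions lay 1.65 Mb below and 462 kb above it.

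The highest position of the Pgd region, 148544969, lay inside the window from 148.47 to 148.59 Mb but 4.97 kb outside the window reduced to about the gene, which runs from 148.52 to 148.54 Mb. It was beyond the upper edge, again the side of the start since Pgd is on the minus strand in RefSeq. With that reduced window, Pgd had no region. The 4.97 kb is less than the 10 kb to which the windows are rounded, so whether the region lies outside the gene is not known. In GRCm38 the protein-coding neighbour within 50 kb on the start side is Kif1b, which encodes a kinesin motor, and Dffa, Cort and Cenps lie on the other side. Whether the region belongs to Pgd or to one of these neighbours was not tested.

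The non-oxidative branch held the tallest member and the lowest one, both in the window of Tkt. The taller spanned positions 31377632 to 31377993 of chromosome 14 and reached 35.172, rank 23 of the list, and 1.83% of the list was at least as tall. It was second of the 48 regions on chromosome 14. The lower spanned positions 31310912 to 31311194 and reached 9.175, rank 840, below both the list median and the chromosome median of 9.84. The taller was 3.83 times as high as the lower, and 66.4 kb separated them.

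The placement of the 2 regions of Tkt also differed. The highest position of the taller one, 31377807, lay within the window reduced to about the gene, from 31.36 to 31.39 Mb, and 17.8 kb inside its lower edge, the side of the start for a gene on the plus strand. That of the lower one, 31311043, lay 49.0 kb outside that edge and was 1.04 kb within the window from 31.31 to 31.44 Mb. It was the member nearest to a window's limit, so that a slightly narrower window would not count it. The nearest listed region outside any of the 5 windows lay 417 kb beyond the window of Pgd, at 149006807 to 149007137, and was 11.754 high. In GRCm38, Dcp1a, which encodes an mRNA decapping factor, is the coding neighbour of Tkt within 50 kb on the start side and Prkcd, which encodes protein kinase C delta, on the other side. Which gene the lower region belongs to was not tested.

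Taldo1 had 1 region, which spanned positions 148578791 to 148579114 of chromosome 7 and reached 19.296. It ranked 115 and 9.16% of the list was at least as tall, at 1.92 times the list median. It was second of 34 regions on chromosome 7, where heights reached 24.143 and the median was 10.05. Its highest position, 148578966, lay within the window reduced to about the gene, from 148.57 to 148.59 Mb, and 8.97 kb inside its lower edge, the side of the start on the plus strand. The next listed regions lay 4.32 Mb below and 870 kb above. Within 50 kb in GRCm38, Taldo1 has 6 protein-coding neighbours: Eps8l2 on the start side and Gatd1, Cend1, Slc25a22, Pidd1 and Rplp2 on the other.

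**Figure D2:**
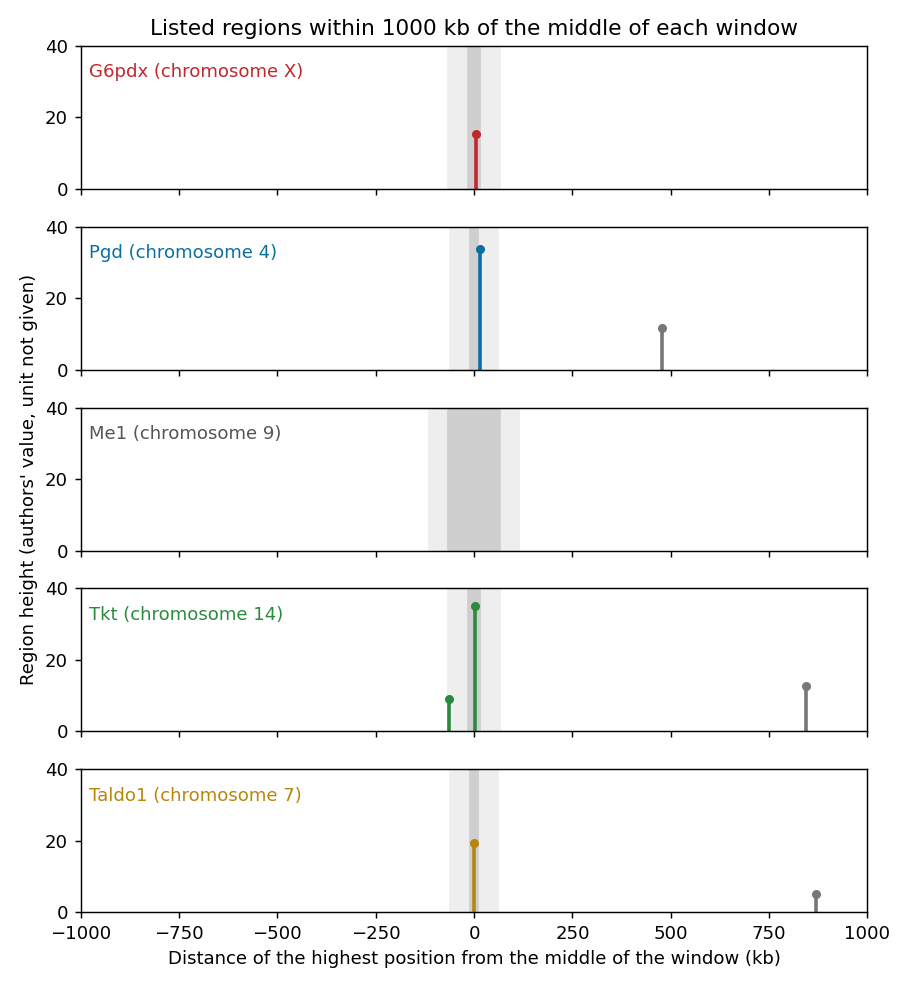
Listed regions within 1000 kb of the middle of each gene's window, by distance of the highest position from that middle (kb) and by height (authors' value, unit not given). Light grey is the window and dark grey the window with 50 kb taken off each side; coloured stems lie in the window and grey stems outside it. The regions of G6pdx and Taldo1 and the taller one of Tkt stand in the dark band, that of Pgd just beside it, and Me1 has none.

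Me1, whose product makes NADPH from malate in the cytosol, had no listed region. Its window, from 86.42 to 86.65 Mb of chromosome 9, was the longest of the 5 at 230 kb. The nearest listed region below it ran from 78039516 to 78039871 with a height of 12.84 and lay 8.38 Mb from the window. The nearest above ran from 99061202 to 99061530 with a height of 12.965 and lay 12.4 Mb away. The stretch between them, 21.0 Mb, was the longest between neighbouring regions of chromosome 9, where the median was 1.95 Mb. Of the 1235 such gaps in the list, 6 were at least this long (0.486%), and 2 of these 6 were the gaps on either side of the G6pdx region on X. The empty window of Me1 thus lay in a wide stretch with nothing listed, and chromosome 9 as a whole held 36 regions with heights up to 55.959. Since the depth and the threshold of the list are not known, a region below the lowest listed height of 5 would not appear, and an empty window does not show that Nrf2 was not bound there.

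**Figure D3:**
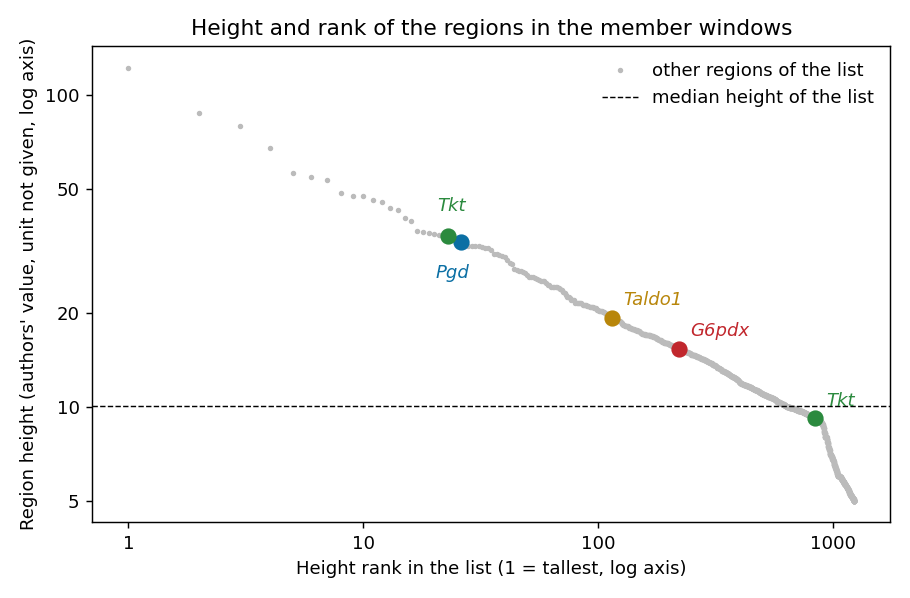
Height against height rank for all 1256 listed regions (grey points, both axes logarithmic), with the 5 regions in the gene windows in colour; Tkt appears at 2 points and the dashed line is the list median of 10.1. The taller region of Tkt and the region of Pgd sit at ranks 23 and 26, Taldo1 at 115, G6pdx at 221 and the lower region of Tkt at 840.

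Set side by side, the tallest regions of the 4 windows had heights of 35.172 for Tkt, 33.82 for Pgd, 19.296 for Taldo1 and 15.353 for G6pdx, a 2.29-fold span. Tkt and Pgd were 3 ranks apart in the list. Named by their windows, both the pair of tall heights and the pair of lower ones thus took 1 gene from each branch of the pathway. Without replicates, none of these differences in height could be tested. Of the 5 regions, 4 were above the list median and 3, those of Tkt, Pgd and Taldo1, were among the tallest 10% of the list, which begins at a height of 18.5.

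In shape the 5 regions were alike. Widths were 282 bp for the lower region of Tkt, 320 bp for G6pdx, 323 bp for Taldo1, 340 bp for Pgd and 361 bp for the taller region of Tkt, against a list median of 345 bp. The highest position lay 2 to 13.5 bp from the middle of the region, or 0.625 to 4.18% of the width. Over the 1181 regions of the list that touched no other, the median distance was 16.5 bp, or 4.77% of the width. All 5 members were nearer to their middle than these medians. None touched another region, and apart from the pair of Tkt the smallest distance to the next region was 462 kb, against a median gap of 815 kb in the list.

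**Figure D4:**
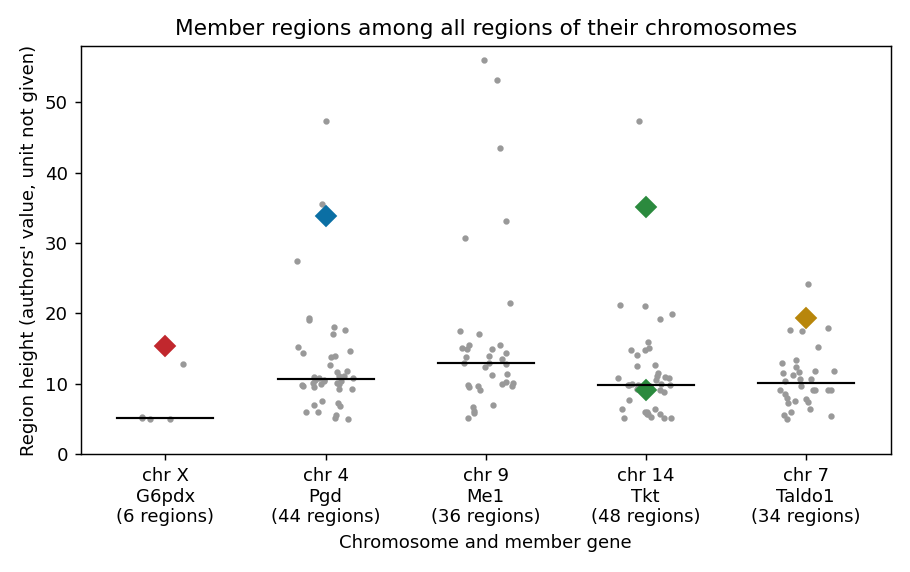
Heights of all listed regions on the 5 chromosomes that carry the genes (grey points, spread sideways for visibility; black line, median of the chromosome; height is the authors' value, unit not given), with the regions in the gene windows as diamonds. The diamonds of G6pdx, Pgd and Taldo1 and the upper one of Tkt hold ranks 1 to 3 on their chromosomes, while the lower one of Tkt lies under its chromosome's median.

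As a background for these counts, the chromosomes were divided into 20037 consecutive windows of 130 kb, the median length of the gene windows. Of these, 1012 held at least 1 region (5.05%, exact Clopper-Pearson 95% interval 4.75 to 5.36%, counting error only), beside 4 of the 5 gene windows. A region above the list median was the tallest in 2.62% of the windows and in 4 of the 5 gene windows. A region among the tallest 10% was the tallest in 0.554% of the windows and in 3 of the 5 gene windows. By chromosome, windows with a region made up 2.66% on the chromosome of Pgd, 2.87% on that of Taldo1, 3.27% on that of Me1 and 4.84% on that of Tkt. In the windows with a region, the tallest one had a median height of 10.3, and 199 of 1012 (19.7%) were as tall as the region of G6pdx or taller. The genes were proposed with results of this list in view, so nothing is read from the difference between the gene windows and this background. The background windows also take in stretches without genes, which the gene windows by their choice do not.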

How the data were processed

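Nrf2 ChIP-seq was made from 3 libraries of Keap1-/- fibroblasts, 1 per group, grouped by sample title. The authors deposited 1 list of 1256 regions with chromosome, start, end, highest position and height. Per the file headers the height is the maximum height of the region, and positions are on mm9, per the submitters' processing notes. The aligner, peak caller, thresholds, use of the control and normalization are not given in the sources used, nor is whether positions count from 0 or 1. They are printed as deposited. Intervals cover counting error only, and depth per sample is unknown.

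Regions were placed in the windows by their highest position, ranked by height over the whole list (rank 1 the tallest) and described without tests. Chromosome lengths were taken as the end of the last region. Gene names, neighbours and strands came from RefSeq tables of GRCm38.p6, whose positions were not combined with the list. Distances to start sites and links to other genes need an mm9 annotation, so distances to the edge of the reduced window are given. The named genes are the 5 members, each with every region in its window, and the nearest regions beside an empty window. The members, lists and windows were chosen with earlier results of these data known. The motif TGACTCA and the comparison of heights over background windows were added after values were seen. The shares of G and C, the shapes of the regions, the gap lengths and the ranks within chromosomes were not in the written plan either. The steps were tested on simulated data. The tools were pandas 2.3.3, scipy 1.17.1 and numpy 2.4.6 under Python 3.11.15, with figures drawn in matplotlib 3.10.9.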

Additional observations from a re-analysis of the deposited data

How the results depend on the processing

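The 5 regions in 4 gene windows were counted again under 7 other settings. With 50 kb taken off each side of the windows, 3 regions in 3 windows were left, because Pgd and the lower region of Tkt fell outside. For Pgd this was by less than the 10 kb to which the windows are rounded. In the taller part of the list above the median, 4 regions in 4 windows were left. The other 5 settings (heights of 9 or more, any overlap, the middle of the region, windows widened by 50 kb, regions within 1 kb joined) gave 5 regions in 4 windows. The share of background windows with a region was 5.05%, and became 3.59% for heights of 9 or more, 4.71% with windows of 120 kb and 8.53% with windows of 230 kb, the length of the Me1 window. These shifts follow from fewer regions or other lengths. The longer motif was found in 1 gene and the core TGACNNNGC in 3, as a shorter motif must match at least as often. The share of the list at least as tall as each member was recounted with regions within 1 kb joined or without chains of 5 or more regions. For G6pdx it was 17.6%, and became 17.96% and 17.27%. In 10 of 10 recounts it stayed within its 95% binomial interval. Both settings reuse the same list and the interval covers counting error only, so this is no independent check of the ranks. Start sites and gene distances in mm9 were not run. No paired analysis was possible because each group has 1 library and no result comes from a test. The unknown depth limits what an empty window can show.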
